A study of Mus musculus with 10 samples.

Results

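The sarcomeric myosin heavy chains are the motor proteins of the thick filaments of striated muscle, and 8 of their genes, *Myh1*, *Myh2*, *Myh3*, *Myh4*, *Myh6*, *Myh7*, *Myh7b* and *Myh8*, were taken by symbol from the 55359 genes of the deposited table. All 8 were among the 13548 genes whose mean FPKM (fragments per kilobase of transcript, scaled to the size of the library) over all libraries was at least 0.5 and which were tested. The cells were C2C12, an immortal mouse myoblast line that fuses into myotubes when serum is withdrawn, so no animals are compared. They were transfected either with a control siRNA (si-Control, 5 libraries) or with an siRNA against *Fndc1* (si-*Fndc1*, 5 libraries), which encodes a secreted fibronectin type III domain protein, both at 100 nM. According to the sample labels both groups were grown in 20% FBS and collected after differentiation for 4 days under 2% horse serum, whereas the series design places the harvest 48 h after transfection. The labels do not say whether the 5 libraries of a group came from separate cultures, so p-values measure the spread between these libraries, which may be technical.

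A sarcomeric myosin heavy chain consists of a motor head that hydrolyses ATP and pulls on actin, a neck that carries the light chains, and a long coiled-coil tail that packs into the filament. Muscle fibres use the isoforms in turn: embryonic and perinatal chains come before the adult ones, and in the adult the fast chains of types IIA, IIX and IIB and the slow chain set how fast a fibre contracts. C2C12 myotubes are known for a largely developmental set of isoforms, since they are not innervated.

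Each si-Control library held between 66771605 and 75995168 counts, each si-*Fndc1* library between 56332844 and 72839369. The siRNA lowered its target in part: *Fndc1* was at 24.7 to 29.6 FPKM in si-Control and 18.7 to 23.5 FPKM in si-*Fndc1*, a ratio of the means of 0.752 (log2 fold change −0.40, adjusted p = 0.000934, edgeR). When the trend of the counts with GC content and length was taken out of every library, the *Fndc1* difference was −0.22 on the log2 scale (adjusted p = 0.0104, edgeR). Of the 10 markers of myotubes all were tested, and their summed level was 4101 to 4412 FPKM in si-Control and 3887 to 4535 FPKM in si-*Fndc1*, of which *Mymk*, *Ckm* and *Myl1* rose, *Mymx* fell and 6 did not pass the test, where 34.4% of all tested genes were called. With the GC and length trend removed, *Mymk* and *Myl1* lost their calls (adjusted p = 0.116 and 0.543, edgeR), *Ckm* and *Mymx* kept theirs, *Myog* was then lower and *Des* higher. The 6 markers of undifferentiated myoblasts summed to 66.9 to 72.2 FPKM in si-Control and 72.5 to 80.9 FPKM in si-*Fndc1*. Of these *Myod1* rose and 5 did not pass the test, and the median log2 fold change of the list was 0.0083. Means of *Myod1* alone were 41.9 FPKM in si-Control and 46.7 FPKM in si-*Fndc1*. It kept its call with the GC and length trend removed, where *Myf5* was lower (log2 fold change −0.22, adjusted p = 0.0153, edgeR). Of the 7 markers of cardiac muscle, *Myl7* and *Hand2* were at 0 in all 10 libraries, and the list summed to 1.81 to 2.82 FPKM in si-Control and 1.62 to 2.94 FPKM in si-*Fndc1*. All 10 transcripts of liver rose, from a sum of 0 to 5.35 FPKM in si-Control to 44.4 to 164 FPKM in si-*Fndc1*; C2C12 cells are not liver cells, and the part of these transcripts in the results given here was not tested.

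The members lie in 3 places of the genome. *Myh3*, *Myh2*, *Myh1*, *Myh4* and *Myh8* follow each other in this order on the forward strand of chromosome 11, *Myh3* at chr11:66969126-66993117, *Myh2* at chr11:67061892-67088340, *Myh1* at chr11:67090878-67115401, *Myh4* at chr11:67128855-67151272 and *Myh8* at chr11:67167950-67199460. *Myh6*, at chr14:55179378-55204098, and *Myh7*, at chr14:55208141-55232083, stand side by side on the reverse strand of chromosome 14, and *Myh7b* lies alone at chr2:155453132-155476227. These positions are those of the deposited table, for which the submitters' processing notes name GRCm39.

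The genes are alike enough that reads can be hard to assign, which is why a stretch of their coding sequence is shown here. In the longest coding transcript of each gene in the mouse build NCBIM37, the coding sequences were 68.8% to 91.7% identical over the 28 pairs, most between *Myh6* and *Myh7* (91.7%) and between *Myh1* and *Myh2* (90.9%). The 60 bases that differ most between the 8 genes while lying in a single exon of each lie in the motor head. They are printed with capitals at every base that differs from *Myh3*.
Myh3: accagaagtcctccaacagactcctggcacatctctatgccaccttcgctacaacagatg
Myh8: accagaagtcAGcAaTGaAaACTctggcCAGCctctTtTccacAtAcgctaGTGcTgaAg
Myh1: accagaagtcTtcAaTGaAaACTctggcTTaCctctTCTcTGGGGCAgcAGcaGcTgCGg
Myh2: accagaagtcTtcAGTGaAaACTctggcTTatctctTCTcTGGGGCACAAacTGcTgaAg
Myh4: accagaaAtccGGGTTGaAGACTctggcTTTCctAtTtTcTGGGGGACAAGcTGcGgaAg
Myh7: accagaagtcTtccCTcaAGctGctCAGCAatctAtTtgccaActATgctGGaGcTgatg
Myh6: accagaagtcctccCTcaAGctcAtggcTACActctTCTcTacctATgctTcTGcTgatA
Myh7b: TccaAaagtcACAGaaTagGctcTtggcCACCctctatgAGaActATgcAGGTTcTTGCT

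In this window 20 bases of *Myh7*, 20 of *Myh6*, 22 of *Myh8*, 27 of *Myh1*, 28 of *Myh2*, 28 of *Myh7b* and 34 of *Myh4* differed from *Myh3*. It lies at chr11:66902567-66902626 in *Myh3* and at chr14:55606061-55606120 in *Myh7* in NCBIM37. In other stretches some of the genes are the same letter by letter. The longest identical stretch was 268 bases, shared by *Myh1* (chr11:67026721-67027099, exons 23 and 24) and *Myh2* (chr11:67001820-67002198, also exons 23 and 24). Of all 100-base windows of the transcript, 9.46% in *Myh1*, 9.17% in *Myh2*, 3.85% in *Myh4* and 5.17% in *Myh8* occurred in another member, as did 11.2% in *Myh7* and 11.5% in *Myh6*. No window of this length was shared in *Myh3* or *Myh7b*. At 75 bases, the read length that the series design gives, the shares were 16.2% in *Myh1*, 16.3% in *Myh2*, 9.37% in *Myh4*, 11.4% in *Myh8*, 15.3% in *Myh7* and 15.6% in *Myh6*, with 0.588% in *Myh3* and none in *Myh7b*. Small values of *Myh2* beside *Myh1*, and of *Myh6* beside *Myh7*, are uncertain to the extent that shared reads were counted to either.

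The proximal promoters of *Myh3*, *Myh1* and *Myh7* are shown as those of the most abundant isoform and of the isoforms whose share of the family passed the test described further on. They are the 250 bases before the start site in RefSeq (GRCm38.p6), with capitals at a TATAAA or at the element bound by the MEF2 factors.
Myh3: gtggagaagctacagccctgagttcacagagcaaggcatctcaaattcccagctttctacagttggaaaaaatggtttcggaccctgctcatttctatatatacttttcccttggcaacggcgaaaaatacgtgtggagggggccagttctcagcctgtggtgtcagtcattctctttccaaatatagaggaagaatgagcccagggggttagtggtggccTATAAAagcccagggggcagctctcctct
Myh1: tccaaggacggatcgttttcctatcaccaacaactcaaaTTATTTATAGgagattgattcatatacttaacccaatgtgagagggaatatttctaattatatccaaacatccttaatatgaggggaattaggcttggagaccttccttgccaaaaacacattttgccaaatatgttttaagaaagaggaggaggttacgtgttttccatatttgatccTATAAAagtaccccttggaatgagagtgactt
Myh7: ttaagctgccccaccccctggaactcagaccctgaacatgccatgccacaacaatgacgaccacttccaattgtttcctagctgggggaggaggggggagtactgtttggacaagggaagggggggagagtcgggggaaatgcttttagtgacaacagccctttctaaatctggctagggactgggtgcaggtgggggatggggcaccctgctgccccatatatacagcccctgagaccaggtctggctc

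The *Myh3* stretch is chr11:67078050-67078299 (forward strand), the *Myh1* stretch chr11:67199852-67200101 (forward strand) and the *Myh7* stretch chr14:54994550-54994799 (reverse strand). All 8 members had an entry, *Myh7* with a pair of start sites, so that 9 windows of 300 bases, which run on past the start, were searched on both strands. TATAAA occurred in 6 of the 9 windows and in 13.6% of all 32851 promoter windows. A match begins 29 bases before the start in *Myh3*, 32 in *Myh1* and 31 in *Myh4*. The matches of *Myh2* and *Myh6* lie past the start, and that of *Myh8* lies within its MEF2 element. The MEF2 element, a 10-base AT-rich site, occurred in 3 windows, those of *Myh1*, *Myh4* and *Myh8*, and in 3.19% of all windows. In *Myh1* it begins 211 bases before the start and overlaps a TATAAA, as it does in *Myh4* and *Myh8*. The CArG box, bound by serum response factor, occurred in the *Myh4* window and in 1.63% of all windows. CANNTG, the E-box that myogenic factors bind, occurred in 7 of the 9 windows and in 72.3% of all windows, and CATTCC, the core of the element bound by TEAD factors, in 4 and in 14.7%. A match says only that these letters are present.

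**Figure D1:**
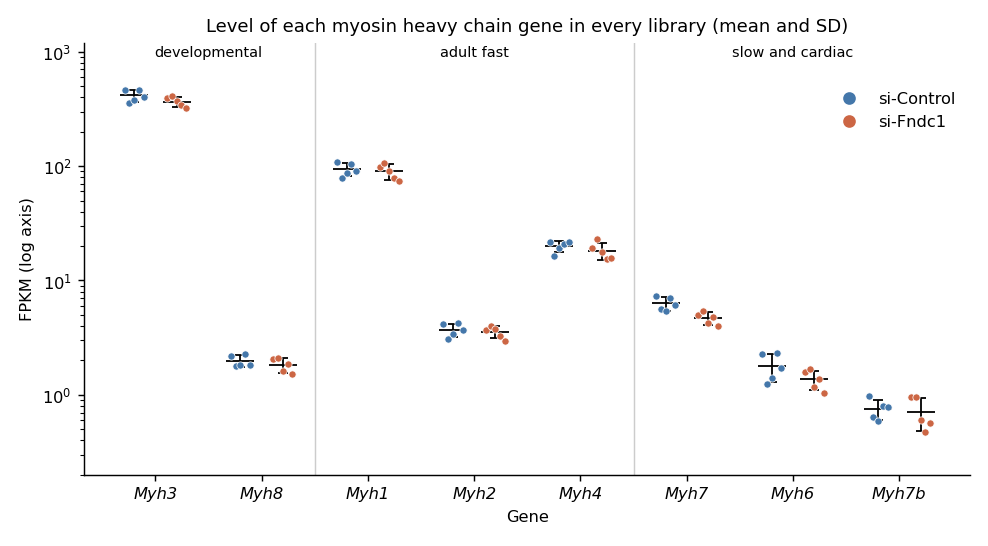
FPKM on a log axis for the 8 myosin heavy chain genes in the 5 si-Control and 5 si-*Fndc1* libraries; each point is a library, and the black marks give the mean and SD of the group. The isoforms spread over nearly all of the axis, from *Myh3* between 320 and 465 FPKM to *Myh7b* at or below 0.972 FPKM, and the groups overlap for every gene.

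*Myh3*, the embryonic chain, made up most of the family, and the perinatal chain *Myh8* was a minor form. *Myh3* was at 465, 358, 379, 465 and 404 FPKM in si-Control libraries 1 to 5 and at 395, 407, 368, 341 and 320 FPKM in si-*Fndc1* libraries 1 to 5. A pair of si-*Fndc1* libraries lay below every si-Control library and none above, and the log2 fold change was −0.17 (SE 0.09, 95% confidence interval −0.37 to 0.03, adjusted p = 0.166, edgeR), which did not pass the test. *Myh8* was at 2.21, 1.80, 1.84, 2.30 and 1.82 FPKM in si-Control and 2.04, 2.11, 1.61, 1.85 and 1.51 FPKM in si-*Fndc1*. Its groups overlapped, with a log2 fold change of −0.12 (SE 0.11, adjusted p = 0.445, edgeR).

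Of the adult fast chains, *Myh1* (type IIX) was the most abundant, followed by *Myh4* (type IIB, the fastest) and *Myh2* (type IIA). *Myh1* was at 108, 78.8, 87.0, 103 and 91.1 FPKM in si-Control and 99.1, 107, 91.3, 78.2 and 74.4 FPKM in si-*Fndc1*. The groups covered nearly the same range, and the log2 fold change was −0.05 (SE 0.11, 95% confidence interval −0.30 to 0.20, adjusted p = 0.778, edgeR). *Myh4* was at 21.5, 16.5, 19.1, 20.8 and 21.9 FPKM in si-Control and 19.1, 23.1, 17.8, 15.6 and 15.7 FPKM in si-*Fndc1*. The highest library of this gene was a si-*Fndc1* library, as was the lowest, and the log2 fold change was −0.12 (SE 0.11, adjusted p = 0.447, edgeR). *Myh2* was at 4.14, 3.06, 3.41, 4.21 and 3.69 FPKM in si-Control and 3.71, 4.01, 3.76, 3.29 and 2.96 FPKM in si-*Fndc1*. This was again an overlap, with a log2 fold change of −0.05 (SE 0.11, 95% confidence interval −0.29 to 0.18, adjusted p = 0.740, edgeR).

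*Myh7*, the slow chain of type I fibres and the beta chain of the heart, was the member that fell. It was at 7.24, 5.65, 5.36, 7.10 and 6.14 FPKM in si-Control and 5.04, 5.46, 4.21, 4.75 and 3.99 FPKM in si-*Fndc1*, with 4 of 5 si-*Fndc1* libraries below every si-Control library. Its mean went from 6.30 ± 0.845 to 4.69 ± 0.599 FPKM (SD, n = 5), and the log2 fold change was −0.42 (SE 0.11, 95% confidence interval −0.65 to −0.18, adjusted p = 0.0117, edgeR). The call did not hold when, in every library, the trend of the counts with GC content and length was taken out: the log2 fold change was then −0.18 (adjusted p = 0.182, edgeR). Leaving out any single library gave −0.48 to −0.36, with adjusted p-values of 0.00666 to 0.0309.

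*Myh6*, the alpha chain of the heart, was at 2.29, 1.25, 1.41, 2.32 and 1.73 FPKM in si-Control and 1.57, 1.68, 1.16, 1.36 and 1.04 FPKM in si-*Fndc1*. Its difference was nearly as large as that of *Myh7* but less precise, with a log2 fold change of −0.39 (SE 0.19, 95% confidence interval −0.82 to 0.04, adjusted p = 0.145, edgeR). With the GC and length trend removed the log2 fold change of *Myh6* was −0.19 (adjusted p = 0.503, edgeR). *Myh7b*, an ancient slow-type chain found in the heart and in a few specialised muscles, was the lowest member, at 0.972, 0.640, 0.593, 0.792 and 0.781 FPKM in si-Control and 0.955, 0.967, 0.60, 0.473 and 0.568 FPKM in si-*Fndc1*. Its highest library was in si-Control and its lowest in si-*Fndc1*, with wide overlap, and the log2 fold change was −0.08 (SE 0.22, 95% confidence interval −0.56 to 0.40, adjusted p = 0.814, edgeR).

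In all, 1 of the 8 members passed the test and 7 did not, where 34.4% of all tested genes were called, 17.2% as lower and 17.3% as higher. The FPKM values of the groups overlapped for all 8 members, while they did not overlap for 25.1% of all tested genes. All 8 fitted fold changes lay below 0, as did 49.3% over all tested genes, and the members' median log2 fold change was −0.12 beside 0.0043 over all tested genes. The members share their libraries, so these 8 signs are not independent. With the replicate number as a block the member called was again *Myh7* (26.4% of all tested genes called), limma on log2(FPKM + 1) and on log2(FPKM + 0.1) called 2 members (34.5% and 34.4%), and edgeR with the GC and length trend removed called 0 (22.7%, or 14.7% with the block added). The signs of *Myh1*, *Myh2*, *Myh7b* and *Myh8* turned to above 0 once the GC and length trend was removed, with log2 fold changes of 0.049, 0.088, 0.18 and 0.089. In bulk RNA, fewer myotubes and less of a transcript per myotube cannot be told apart.

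**Figure D2:**
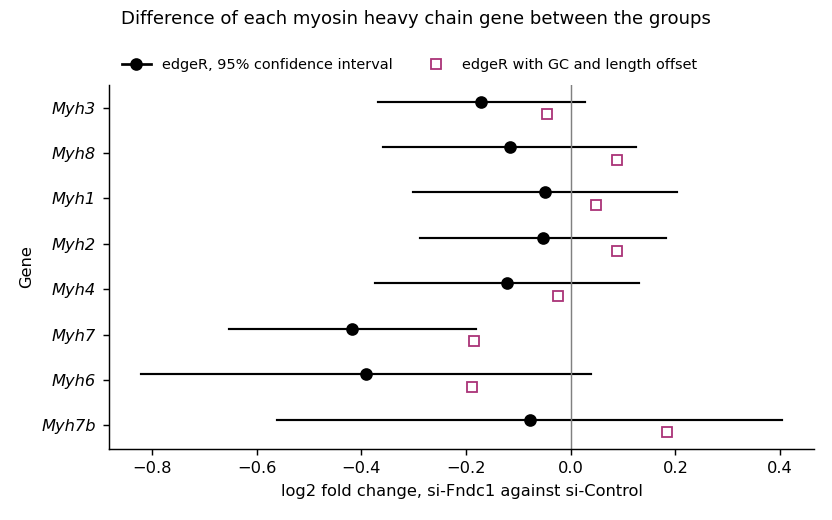
Log2 fold change, si-*Fndc1* against si-Control, for the 8 members on the horizontal axis. Filled circles and lines are the edgeR estimate and its 95% confidence interval. Open squares are the edgeR estimate with an offset for GC content and for the length implied by count and FPKM. The interval of *Myh7* alone lies below 0, and every square lies to the right of its circle.

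The GC content of the members stood beside this. Over the 11185 tested genes with a GC content and a length, the median log2 fold change went from 0.17 in the 2237 genes with the lowest GC content to −0.18 in the 2237 with the highest. *Myh6*, *Myh7* and *Myh7b* belong to the latter, at 56.4%, 56.2% and 59.2% GC. The other members, at 52.6% to 53.8% GC, belong to the 2237 genes next in order, whose median log2 fold change was −0.09. By the length implied by count and FPKM, the median went from 0.081 in the 2237 shortest genes to −0.059 in the 2237 longest. *Myh7* and *Myh8* belong to the longest, and the other members to the 2237 next in order, with a median of −0.023. How much of the members' difference belongs with base composition or length was not tested beyond the fit with the offset.

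Per length, the order of the levels was *Myh3*, *Myh1*, *Myh4*, *Myh7*, *Myh2*, *Myh8*, *Myh6* and *Myh7b* in both groups. The authors' FPKM uses lengths that differ more between the members than their mRNAs do: the length implied by count and FPKM was 6734 bases for *Myh3* and 7064 for *Myh1* but 9585 for *Myh7* and 13095 for *Myh8*, whereas the longest coding transcripts have 6016 to 6230 bases. Levels were therefore also taken as counts per base of that transcript, as a share of the 8 members. On this scale *Myh3* took 75.2% ± 0.371 of the family in si-Control (SD, n = 5), *Myh1* 17.7% ± 0.300, *Myh4* 3.61% ± 0.279, *Myh7* 1.57% ± 0.0696, *Myh2* 0.783% ± 0.0181, *Myh8* 0.690% ± 0.0309, *Myh6* 0.355% ± 0.0560 and *Myh7b* 0.147% ± 0.0161. No neighbours in this order overlapped between the libraries of a group on this scale. On the FPKM scale *Myh8* and *Myh6* did overlap, at 1.80 to 2.30 and 1.25 to 2.32 FPKM in si-Control and at 1.51 to 2.11 and 1.04 to 1.68 FPKM in si-*Fndc1*.

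The question of which isoforms make up the family was addressed by the share of each in the summed FPKM of a library. Dividing by the sum takes out its scale, but a share can still vary with it. In si-*Fndc1*, for example, library 2 had both the highest sum (551 FPKM) and the highest *Myh1* share (19.4%). Of the 4 isoforms with a mean share of at least 1%, *Myh7* took a smaller share and *Myh1* a larger one in si-*Fndc1*. The *Myh7* share was 1.18%, 1.21%, 1.08%, 1.17% and 1.16% in si-Control libraries 1 to 5, and 0.957%, 0.991%, 0.862%, 1.06% and 0.950% in si-*Fndc1* libraries 1 to 5. All 5 of the si-*Fndc1* values were below the lowest si-Control value, and the mean went from 1.16% ± 0.0515 to 0.965% ± 0.0726 (SD, n = 5; two-sided exact permutation p = 0.00794, the smallest that 5 against 5 libraries allow). With the GC and length trend removed from the counts the *Myh7* share was 1.56% in si-Control and 1.40% in si-*Fndc1* (exact permutation p = 0.0238), with 4 of 5 si-*Fndc1* libraries below every si-Control library. This was a difference of −0.158 points, where the counts without that step gave −0.273 points.

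The *Myh1* share was 17.6%, 16.9%, 17.5%, 17.1% and 17.1% in si-Control, and 18.8%, 19.4%, 18.7%, 17.5% and 17.7% in si-*Fndc1*. In si-*Fndc1*, 4 of 5 values were above the highest of si-Control, and the mean went from 17.2% ± 0.293 to 18.4% ± 0.804 (SD, n = 5; two-sided exact permutation p = 0.0159). With the GC and length trend removed from the counts this share differed by 0.926 points, against 1.22 points on the counts without that step, and did not pass 0.05 (exact permutation p = 0.0714). The spread of the *Myh1* share was wider in si-*Fndc1* than in si-Control, and library 4 of si-*Fndc1* lay within the si-Control range.

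The *Myh3* share was 76.1%, 76.9%, 76.2%, 76.7% and 76.1% in si-Control and 75.0%, 73.8%, 75.4%, 76.4% and 76.2% in si-*Fndc1*. The means were 76.4% ± 0.387 and 75.3% ± 1.03 (SD, n = 5), a difference of −1.05 points that did not pass the test (two-sided exact permutation p = 0.0714). Leaving out single libraries gave exact permutation p-values of 0.0238 to 0.127, with 0.0238 without si-*Fndc1* library 4 and 0.0476 without library 5. In 13 of 15 alternatives the *Myh3* share did not pass, as in the main test. The *Myh4* share was between 3.44% and 4.11% in si-Control, against 3.48% to 4.19% in si-*Fndc1*, a difference of 0.0459 points (exact permutation p = 0.770). These p-values are not adjusted for the 4 isoforms, and shares of a library sum to the whole, so that a smaller share of one isoform adds to those of the rest.

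The minor isoforms, each below 1% of the summed FPKM, were not tested. The *Myh2* share was between 0.657% and 0.695% in si-Control, against 0.705% to 0.769% in si-*Fndc1*, with no overlap. The *Myh6* share was between 0.268% and 0.383% in si-Control, against 0.238% to 0.305% in si-*Fndc1*. The groups overlapped for *Myh8*, at means of 0.367% and 0.375%, and for *Myh7b*, at means of 0.139% and 0.144%.

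**Figure D3:**
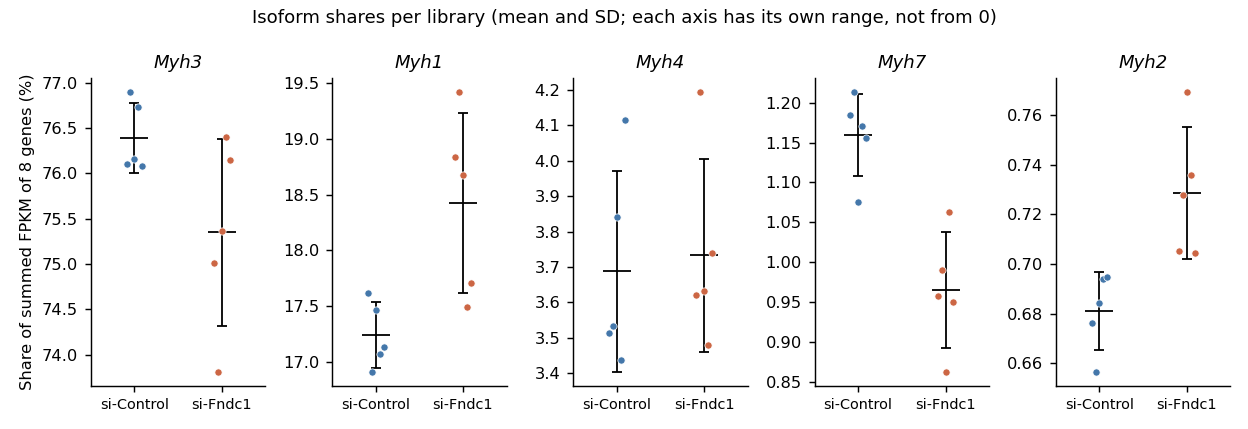
Share of *Myh3*, *Myh1*, *Myh4*, *Myh7* and *Myh2* in the summed FPKM of the 8 members, in percent, with a vertical axis of its own for each gene that does not start at 0; each point is a library, and the black marks give the mean and SD of 5 libraries. The *Myh7* and *Myh2* shares do not overlap between the groups, and those of *Myh3* and *Myh4* do.

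The same values as ratios within a library gave *Myh7* at between 0.0141 and 0.0158 of *Myh3* in si-Control, against 0.0114 to 0.0139 in si-*Fndc1*, on the FPKM scale. *Myh1* was at between 0.220 and 0.232 of *Myh3* in si-Control, against 0.229 to 0.263 in si-*Fndc1*. The adult fast chains *Myh1*, *Myh2* and *Myh4* together stood at 0.282 ± 0.00697 of the developmental chains *Myh3* and *Myh8* in si-Control and at 0.302 ± 0.0176 in si-*Fndc1* (SD, n = 5). The slow and cardiac chains *Myh6*, *Myh7* and *Myh7b* together took between 1.48% and 1.72% of the summed FPKM in si-Control. In si-*Fndc1* they took 1.22% to 1.47%. Most of this was *Myh7*, at mean shares of 1.16% and 0.965%, while *Myh7b* was at 0.139% and 0.144%. The ratios and sums given here were not taken with the GC and length trend removed. The ratios of the most alike pairs overlapped between the groups: *Myh7* was 3.62 ± 0.587 times *Myh6* in si-Control and 3.48 ± 0.260 times in si-*Fndc1*, and *Myh1* was 25.3 ± 0.655 times *Myh2* in si-Control and 25.3 ± 1.35 times in si-*Fndc1* (SD, n = 5).

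The summed level of the 8 members was 612, 466, 498, 606 and 531 FPKM in si-Control and 526, 551, 489, 447 and 420.0 FPKM in si-*Fndc1*. The groups overlapped, with means of 543 ± 64.8 and 487 ± 54.3 FPKM (SD, n = 5) and a ratio of 0.897, which is given without a test. Leaving out any single library moved the ratio between 0.866 and 0.928. The members took between 0.319% and 0.420% of all counts in si-Control, against 0.287% to 0.380% in si-*Fndc1*.

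The members went up and down together from library to library within each group. In si-Control libraries 1 and 4 and in si-*Fndc1* libraries 1 and 2, all 8 members were above the mean of their group on the log2 CPM scale, and in si-Control libraries 2 and 3 and si-*Fndc1* library 5 all 8 were below it. In the remaining 3 libraries 3 members were above and 5 below. The median deviation of the members from their group mean ran from −0.27 in si-*Fndc1* library 5 to 0.25 in si-*Fndc1* library 2 on the log2 scale. After the group means were subtracted, Pearson's r of log2 CPM over the 10 libraries was 0.652 to 0.974 over the 28 pairs of members, with a median of 0.838. The highest values were those of *Myh1* with *Myh3* (0.974) and of *Myh2* with *Myh3* (0.974), and the lowest that of *Myh4* with *Myh8* (0.652). These are descriptions over libraries that share depth and composition for all genes.

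**Figure D4:**
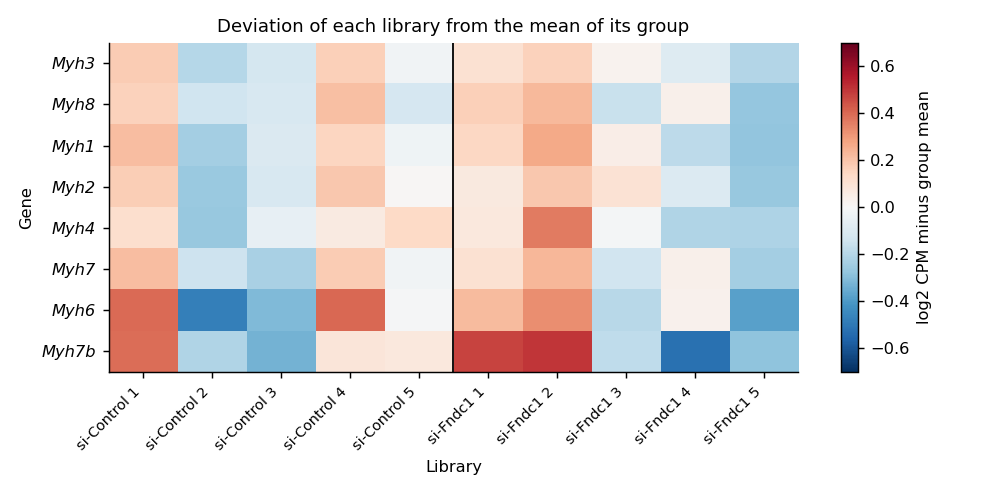
Deviation of each library from the mean of its group, in log2 CPM, for the 8 members (rows) in the 10 libraries (columns, si-Control left and si-*Fndc1* right of the line); red is above and blue below the group mean. The colour runs down whole columns, red in si-*Fndc1* library 2 and blue in si-Control library 2 and si-*Fndc1* library 5, and the values run from −0.52 to 0.50.

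The tested genes that followed each member most closely over the 10 libraries, after removal of the group means, were in part the same. This was so for *Myh3*, *Myh1* and *Myh2*. Whether r differed between the members was not tested. Beside *Myh3* stood *Srl* (r = 0.996), which encodes the calcium-binding sarcalumenin of the sarcoplasmic reticulum, *Myom1* (r = 0.982), a protein of the M-band that links thick filaments, and *Itga4* (r = 0.978), an integrin subunit. Beside *Myh1* stood *Neb* (r = 0.989), the nebulin of the thin filament, *Srl* (r = 0.980) and the syntrophin *Sntb1* (r = 0.979). Beside *Myh2* stood *Chrnd* (r = 0.981), a subunit of the acetylcholine receptor, *Pgm5* (r = 0.977) and *Srl* (r = 0.972). The 95th percentile of r over all tested genes was 0.746 for *Myh3*, 0.760 for *Myh1* and 0.741 for *Myh2*.

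The genes closest to the other members were *Itga6* (r = 0.974), *Cd164* and *Slc4a7* for *Myh7*, *Rock2* (r = 0.969), *Taok1* and *Opa1* for *Myh6*, and *Alpk3* (r = 0.969), *Mef2a* and *Wwtr1* for *Myh7b*. For *Myh4* they were *Lima1* (r = 0.981), *Myo18a* and *Akap13*, and for *Myh8* they were *Dusp18* (r = 0.972), *Cpd* and *Atp13a3*. A close match over the libraries did not always go with a similar fold change between the groups. *Neb* fell, with −0.44 on the log2 scale (adjusted p = 0.00705, edgeR), where *Myh1* had −0.05. These values are from the fit without the GC and length offset. With the offset *Myh1* was at 0.049, and the value of *Neb* is not given here. *Srl* had 0.14 (adjusted p = 0.131, edgeR) where *Myh3* had −0.17, and neither passed the test. Other pairs had the same sign, such as *Myom1* (−0.07) beside *Myh3*. Whether the genes of a pair differed was not tested.

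The genes that build and hold the thick filament, a list of 20 chaperones, ubiquitin ligases, myosin-binding proteins and M-band proteins of which 18 were tested, moved in both directions. In this list 2 rose, 3 fell and 13 did not pass the test, with a median log2 fold change of −0.06 beside 0.0043 over all tested genes, of which 34.4% were called. *Ttn*, which encodes the giant protein titin, fell from 13.5 ± 1.32 to 9.86 ± 1.41 FPKM (SD, n = 5; log2 fold change −0.45, adjusted p = 0.00624, edgeR). *Mylk2*, the kinase of the regulatory light chain in skeletal muscle, was lower by less, from 5.02 to 4.37 FPKM (adjusted p = 0.0424, edgeR). *Apobec2*, a deaminase family member of muscle, rose from 31.1 to 34.9 FPKM (adjusted p = 0.00881, edgeR), and *Trim55*, a ubiquitin ligase that binds titin, from 24.9 to 28.5 FPKM (adjusted p = 0.0160, edgeR). Its relative *Trim54* was at 41.7 and 37.5 FPKM and did not pass (adjusted p = 0.0611, edgeR).

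The dedicated myosin chaperone *Unc45b*, needed to fold the motor head, was at 15.3 ± 0.553 FPKM in si-Control and 14.6 ± 0.496 FPKM in si-*Fndc1* (SD, n = 5; adjusted p = 0.253, edgeR), and the methyltransferase *Smyd1*, which works with it, at 21.5 ± 0.593 and 21.3 ± 4.68 FPKM (SD, n = 5; adjusted p = 0.997, edgeR). *Smyd1* was at 13.1 FPKM in si-*Fndc1* library 1 and at 22.1 to 24.1 FPKM in the other 4, above the 20.6 to 21.9 FPKM of si-Control. Without library 1 it was called as higher, with 0.13 on the log2 scale (adjusted p = 0.0198, edgeR), which made 3 genes of the list that rose. *Mybphl* was at 0 in all libraries, and *Mybpc3*, the myosin-binding protein of the heart, was too low to be tested. With the GC and length trend removed no gene of this list was called, and *Ttn* had a log2 fold change of 0.069. The call of *Mylk2* was lost in 14 of 19 alternatives.

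Of 28 factors known to act on myosin heavy chain genes or on fibre type, 23 were tested, and 9 of them fell, 1 rose and 13 did not pass the test, beside 17.2% of all tested genes that fell and 17.3% that rose, with a median log2 fold change of −0.06. *Nfix*, which directs the change from embryonic to fetal muscle genes, went from 61.7 ± 5.87 to 37.2 ± 3.17 FPKM (SD, n = 5; log2 fold change −0.72, adjusted p = 7.32e-05, edgeR). *Hdac5* and *Hdac4*, deacetylases that hold back the MEF2 factors, went from 11.5 to 9.25 and from 3.15 to 2.46 FPKM. *Nfatc1* and *Nfatc4*, calcium-regulated factors of which the first is known for slow fibre genes, went from 3.41 to 2.77 and from 4.31 to 2.99 FPKM. The groups did not overlap for any of these 5 genes, as for 25.1% of all tested genes. The 5 were named for their small p in this list, so the lack of overlap follows largely from that choice. It says nothing about the list as a whole.

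Also lower in this list were *Mef2d*, *Tead4* and *Rcan1*, and the gene that rose was *Purb*, a factor known to hold back myosin heavy chain genes, from 38.9 to 42.2 FPKM (adjusted p = 0.0179, edgeR), a call lost with the replicate block (adjusted p = 0.0689, edgeR) and with both limma fits. With the GC and length trend removed, a fit that holds 22 of the 23 genes and not *Purb*, 2 of the 9 falls kept their call. *Nfix* was one of them, with −0.49 on the log2 scale (adjusted p = 0.000258, edgeR), while *Hdac5* and *Hdac4* were then at −0.0070 and −0.0019 and *Nfatc1* and *Nfatc4* at −0.09 (adjusted p = 0.152, edgeR) and −0.27 (adjusted p = 0.118, edgeR). In the same fit *Pura*, a relative of *Purb*, fell, with −0.27 on the log2 scale, and the thyroid hormone receptor *Thra* rose, with 0.18. *Sox6* and *Thrb*, which act on slow myosin genes, and *Prox1*, *Nfatc2* and *Ppargc1a* were too low to be tested.

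Outside the 8 members, the non-muscle heavy chains *Myh9* and *Myh10*, which drive contraction of the cell cortex, both fell. *Myh9* was at 164 to 173 FPKM in si-Control and 120 to 133 FPKM in si-*Fndc1*, so that it stood above *Myh1* and below *Myh3*, with a log2 fold change of −0.44 (SE 0.03, adjusted p = 1.72e-05, edgeR), and −0.12 (adjusted p = 0.00259, edgeR) with the GC and length trend removed. *Myh10* went from 9.68 ± 0.305 to 8.29 ± 0.501 FPKM (SD, n = 5; adjusted p = 0.00376, edgeR), a call that was lost with that trend removed (adjusted p = 0.194, edgeR). *Myh13*, the chain of the eye muscles, was at 0.520 and 0.489 FPKM (adjusted p = 0.762, edgeR). *Myh14* and the smooth muscle chain *Myh11* were too low to be tested, and *Myh15* had no count in any library.

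Some transcripts overlap the members, and the sources used here do not give the strand setting of the counting. The antisense *Myhas* overlaps *Myh1* and had 142 counts in all 10 libraries together, beside 456801 for *Myh1*. The antisense *9430073C21Rik* overlaps *Myh2* and had 678 counts, beside 20245. The microRNA gene *Mir6923* lies within *Myh3* on the same strand and had 105 counts, beside 1850835. *Trpc4ap* overlaps *Myh7b* by 37 bases and had 103602 counts, beside 3830 for *Myh7b*, so that reads of *Trpc4ap* near its end could add to those of *Myh7b*.

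The slow and cardiac members each hold a microRNA in an intron, and these are shown because they are made from the members' own transcripts. The mature sequences are those of RefSeq (GRCm38.p6), with the seed (bases 2 to 8) in capitals.
miR-208a-3p: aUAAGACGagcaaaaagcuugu
miR-208b-3p: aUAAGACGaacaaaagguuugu
miR-499-5p: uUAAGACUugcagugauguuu

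The first lies in *Myh6*, the second in *Myh7* and the third in *Myh7b*. miR-208a-3p and miR-208b-3p have the same seed, and that of miR-499-5p differs from it. The genes of all 3 precursors had 0 counts in every library, which were made from polyadenylated RNA according to the series design and do not measure mature microRNAs, so no level is given for them.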

How the data were processed

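RNA-sequencing of C2C12 cells was analysed in 5 si-Control and 5 si-*Fndc1* libraries, grouped by their labels; 0 columns of values were left without a library. The authors deposited read counts per gene, not normalized, and beside each count an FPKM value, scaled by gene length and library size. They list FPKM as 0.0001 where no read was counted, which was read as 0. How the authors computed it, and whether replicate numbers mark a shared day, is not given in the sources used here. The methods name TopHat, mm10 and htseq-count, the series design STAR and mm9 with 75-base reads, and the submitters' processing notes cutadapt 1.9, FastQC and GRCm39. The methods speak of fewer libraries than the 10 analysed here.

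The test was edgeR's quasi-likelihood test (4.0.16) on the counts, with TMM factors and group as the only term. It covered 13548 genes at or above a mean FPKM of 0.5. Adjustment was by Benjamini-Hochberg over all of them, with calls at 0.05. Shares were compared by two-sided exact permutation tests over 252 splits. Alternatives were DESeq2 1.42.0, other scaling factors, other filters, a replicate block, limma 3.58.1 on quantile-normalized log2(FPKM + 1) and log2(FPKM + 0.1), leaving out each library, and an offset from the trend of log counts with GC content and length within each library, for the 11185 tested genes (82.6%) with both. Shares per coding transcript length and shares with that trend removed were added after the data had been seen. The length in the offset was the one implied by count and FPKM, not that of the coding transcript. Coding sequences (NCBIM37) were aligned with MAFFT 7.526. On simulated data edgeR recovered 61 of 100 genes changed 1.5-fold and 82 of 100 changed 2-fold among 13548 genes of the si-*Fndc1* comparison, with 5 false calls. The simulation changed 200 genes and held no trend with GC content or length, whereas 4663 genes were called in the data. These rates therefore do not give the power of the real comparison.

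The members and lists were chosen with earlier results of these data known. The genes named are the 8 members, *Fndc1*, the other myosin II heavy chains, the 6 tested genes with the smallest p in either list, the 3 genes with the highest r with each member, and some of the genes overlapping a member. Values of some genes of the lists, which stay in the counts, are not reported here. Markers and some list genes (*Unc45b*, *Smyd1*, *Mef2d*, *Tead4*, *Rcan1*, *Purb*, *Mybpc3*, *Mybphl* and the regulators too low to be tested) were named after their values were seen. Of the smooth muscle markers (5 genes, 3 tested) *Cnn1* rose, and *Smtn* and *Lmod1* fell, and of the fibroblast markers (4 genes, 3 tested) *Dcn* rose and *Col3a1* fell; of these 5 calls that of *Dcn* held with the GC and length offset.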

Additional observations from a re-analysis of the deposited data

How the results depend on the processing

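Under DESeq2, the other scaling factors, the other filters, the block and each left-out library, *Myh7* was the member that fell. With limma on log2(FPKM + 1) and on log2(FPKM + 0.1) 2 members fell, the second being *Myh3*, and with the GC and length offset, alone or with the block, 0 did; the cause was not tested. With that offset, without and with the block, the log2 fold change was 0.049 and 0.045 for *Myh1*, 0.088 and 0.089 for *Myh2*, 0.18 and 0.16 for *Myh7b*, 0.089 and 0.087 for *Myh8*, 0.069 and 0.070 for *Ttn*, and 0.022 and 0.048 for *Myh13*. Leaving out single libraries gave −0.12 to 0.015 for *Myh1*, −0.12 to 0.0082 for *Myh2*, −0.21 to 0.039 for *Myh7b* and −0.18 to 0.027 for *Myh13*.

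In the thick filament list 0 genes rose and 0 fell with the offset, alone or with the block. In the regulator list 0 rose with the block, with either limma fit and with the offset and block together, 1 to 2 rose when a library was left out (2 without si-Control library 4), and 3 fell with the offset, alone or with the block. Of the other heavy chains 1 fell with the offset, alone or with the block. Over all tested genes 4663 were called, against 3572 with the block, 2536 with the offset and 1647 with both.

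The *Myh1* share differed by 0.926 points with the GC and length trend removed (exact permutation p = 0.0714), and the *Myh4* difference was then −0.0127 points. Leaving out single libraries gave −1.31 to −0.662 points for *Myh3* and −0.0690 to 0.152 points for *Myh4*.

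Libraries with the same number did not deviate together: their correlations were −0.0553 to 0.0643 over 5 pairs, against −0.0913 to 0.138 over 20 other pairs, and 1 si-Control library correlated best with its own number. The numbers were therefore not read as pairs. With the replicate block, sign flips of the 5 differences gave 1.18 points for *Myh1* and −0.195 points for *Myh7*, both with an exact p = 0.0625, the smallest that 5 pairs allow; the *Myh7* log2 fold change with the offset and the block was −0.18 (adjusted p = 0.122, edgeR). At the depth of these libraries counting error is small beside the spread between libraries for every member, *Myh7b* the least so.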
